A study of Mus musculus with 66 samples.

Results

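The genes described here encode the nuclear pore complex and the carriers that pass through it. They were taken from the RNA-seq table by symbol: every row starting with Kpn, or with Nup, Ipo, Xpo or Tnpo followed by a digit, except Nup62cl. This gave 43 transcripts of 40 genes, out of 9481 transcripts of 8978 gene symbols listed, and all 43 were tested, having a nonzero count in 4 or more of the 12 RNA-seq libraries. The rule used names and no measured value. Grouped by role, there were 6 transcripts of the outer ring, 5 of the inner ring, 3 of the central channel, 2 of the cytoplasmic side, 2 of the nuclear basket, 1 of the membrane anchor, 5 of importin alpha, 13 of the importin beta family and 6 of exporters.

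The samples are mouse small intestinal organoids, self-organising epithelial cultures, of 1 genotype with an Lgr5 GFPDTR/+ reporter allele in every culture. ENR medium holds epidermal growth factor (50 ng/mL), Noggin and R-Spondin-1 and gave organoids of mixed cell types. The CV culture was ENR with CHIR99021 (3 µM), which inhibits the kinase GSK3, and valproic acid (1 mM), which inhibits histone deacetylases, and is labelled as enriched for stem cells. The EN culture was ENR with the Wnt agonist R-Spondin-1 left out and is labelled as depleted of stem cells. CV cultures were held in their medium for longer than EN cultures, so medium and time cannot be told apart. RNA-seq and ATAC-seq (chromatin accessibility) had 4 libraries in each culture, and 3 histone marks (H3K27ac, H3K27me3 and H3K4me3, by ChIPmentation) had 3 libraries in each. Nothing in the labels says that the libraries came from separate animals, so p-values measure the spread between these cultures, which may be technical. The RNA libraries held 5630977 to 8859757 counts, and spike-in transcripts took 0.837 to 1.36% of them.

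Nuclear pores are assembled from proteins called nucleoporins, built as outer and inner rings around a channel lined with phenylalanine-glycine repeats. Importins bind cargo in the cytoplasm and release it on RanGTP in the nucleus, whereas exporters bind cargo together with RanGTP and release it in the cytoplasm. Importin alpha reads the classical nuclear localisation signal and is itself carried by importin beta 1 (Kpnb1), while most other importins bind their cargo directly. In the intestinal epithelium every cell has nuclear pores, and dividing crypt cells also have to build new pores as they grow.

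Promoter sequences are shown for 5 genes that stand for the patterns found below: Nup107 of the outer ring, whose RNA fell, Nup50 of the basket and Kpna4, whose RNA was nearly level between EN and CV by edgeR, and Kpnb1 and Xpo1, whose RNA fell while a promoter mark was called higher. Each line holds the 250 bases before the start of transcription in RefSeq, read 5′ to 3′ on the gene's strand and placed in mm9 by an exact match. Capitals mark matches, on either strand, to the CCAAT box (CCAAT), to the GC box (GGGCGG), or to the motif of the factor NRF1, as its 10-letter core or, where it matched, the full 12 letters. The windows lie at chr10:117229762-117230011 on the minus strand for Nup107, chr15:84753608-84753857 on the plus strand for Nup50, chr3:68931015-68931264 on the minus strand for Kpna4, chr11:97049207-97049456 on the minus strand for Kpnb1 and chr11:23155791-23156040 on the plus strand for Xpo1.
Nup107: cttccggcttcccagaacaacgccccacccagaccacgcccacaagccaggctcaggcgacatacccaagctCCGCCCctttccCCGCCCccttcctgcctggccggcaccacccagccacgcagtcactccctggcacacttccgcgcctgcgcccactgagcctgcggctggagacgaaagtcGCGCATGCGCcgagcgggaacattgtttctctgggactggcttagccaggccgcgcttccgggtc
Nup50: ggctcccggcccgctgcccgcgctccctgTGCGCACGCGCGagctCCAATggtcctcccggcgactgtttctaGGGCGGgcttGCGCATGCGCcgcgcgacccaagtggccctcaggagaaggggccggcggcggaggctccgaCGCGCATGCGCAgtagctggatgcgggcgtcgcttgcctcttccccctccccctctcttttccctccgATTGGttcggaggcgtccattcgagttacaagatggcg
Kpna4: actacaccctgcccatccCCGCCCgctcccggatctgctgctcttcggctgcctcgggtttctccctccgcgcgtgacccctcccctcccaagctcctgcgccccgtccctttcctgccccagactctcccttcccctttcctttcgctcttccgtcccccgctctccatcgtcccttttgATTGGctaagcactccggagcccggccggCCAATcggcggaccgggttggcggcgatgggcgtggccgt
Kpnb1: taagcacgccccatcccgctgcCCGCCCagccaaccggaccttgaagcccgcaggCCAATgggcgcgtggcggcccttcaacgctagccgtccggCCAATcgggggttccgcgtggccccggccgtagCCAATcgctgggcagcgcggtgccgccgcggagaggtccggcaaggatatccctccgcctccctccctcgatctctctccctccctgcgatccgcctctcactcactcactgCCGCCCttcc
Xpo1: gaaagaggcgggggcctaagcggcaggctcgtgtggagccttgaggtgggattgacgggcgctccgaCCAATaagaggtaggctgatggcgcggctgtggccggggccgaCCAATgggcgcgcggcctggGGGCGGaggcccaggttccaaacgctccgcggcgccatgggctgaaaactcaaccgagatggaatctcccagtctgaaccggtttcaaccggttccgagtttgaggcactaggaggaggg

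RefSeq held 39 promoter windows for 32 of the 40 genes, each running from 250 bases before to 50 bases after the start. Their median GC content was 64.7%, against 56.3% for the 21263 windows of protein-coding genes. A GC box stood in 25 of the 39 windows (64.1%, against 46.2% of protein-coding windows) and a CCAAT box in 21 (53.8%, against 38.2%). The core of the NRF1 motif stood in 4 windows (10.3%, against 3.14%), those of Nup107, Nup50, Nup62 and Xpo5, and the full 12-letter motif in 2 (5.13%, against 1.80%), those of Nup50 and Nup62. The choice between the NRF1 forms was made after matches had been seen. The ETS letters CCGGAAGT stood in 4 windows (10.3%, against 5.15%), the E-box CACGTG in 6 (15.4%, against 7.84%), and TATAAA in 4 (10.3%, against 12.6%). The E2F letters TTTGGCGC or TTTCGCGC stood in 1 window (2.56%, against 1.05%), that of Ipo7. These matches describe the letters of the windows, and the base composition of the windows was not matched between the groups.

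From CV to EN, RNA of the nuclear pore and of most carriers was lower. Of the 43 transcripts, 36 fell and 2 rose at an adjusted p under 0.01 in edgeR's quasi-likelihood test, and 5 were not called. Of all 9288 transcripts tested, 41.2% fell and 35.2% rose in that test. Its median log2 fold change was -1.05 for the members and -0.08 for all transcripts. With the mRNA copies that the authors deposited, 17 members were lower and 5 higher in limma. Of all 9288 transcripts, 1258 were lower and 4418 higher with those copies. The values that follow are from edgeR. All 6 outer ring transcripts, all 5 inner ring transcripts and the membrane anchor fell, with a median of -2.25 for the outer ring and a change of -3.04 for the anchor. The members' summed TPM, a level scaled to transcript length and library total, ran from 572 to 616 across EN libraries, against 1635 to 1707 for CV and 1504 to 1532 for ENR. In bulk organoids fewer cells of a type and less RNA per cell cannot be told apart.

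**Figure D1:**
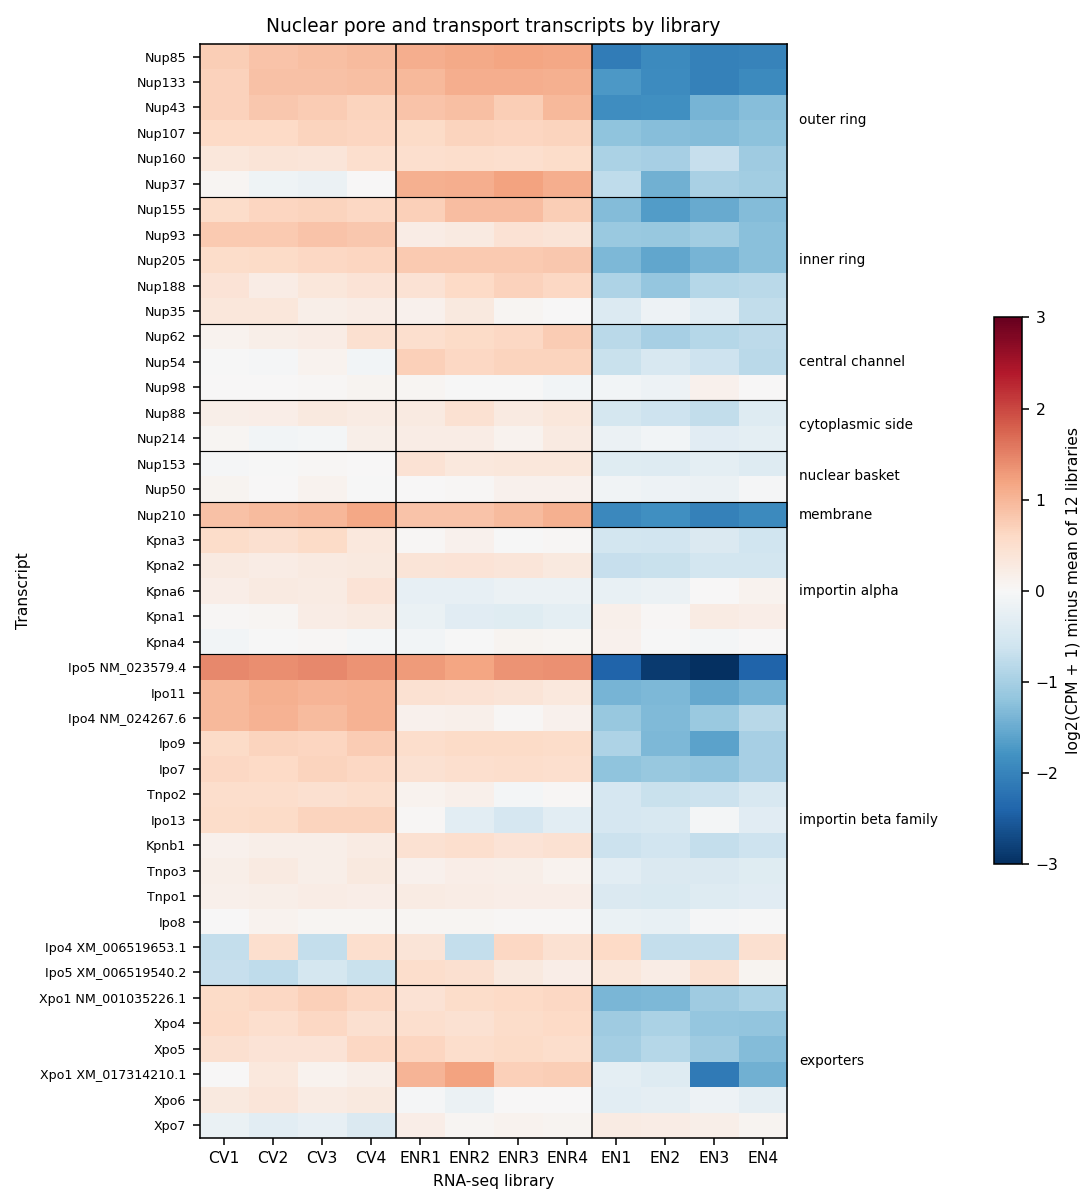
Heat map of the 43 transcripts (rows, by role) in the 12 RNA-seq libraries (columns). Color is log2(CPM + 1) minus the mean of that row over the 12 libraries. The 4 EN libraries are low for every outer ring and inner ring row, while the 3 cultures overlap for Nup98 and Kpna4, and Kpna1 is lowest in ENR.

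Outer ring genes encode the Y complex, the scaffold on both faces of the pore. Nup85, the lowest of them in EN relative to CV, had 69.9, 76.5, 79 and 81.2 CPM in the CV libraries, 90.4, 93.3, 96.6 and 93.8 in the ENR libraries and 8.98, 10.3, 9.45 and 9.65 in the EN libraries. All 4 EN libraries lay below all CV and ENR libraries, and the log2 fold change from CV was -3.01 ± 0.07 (SE), adjusted p = 3.75e-15 in edgeR. Nup37, a peripheral subunit of the same complex, had the smallest fall, with 20.2, 17.6, 17 and 19.4 CPM in the CV libraries, 41.2, 41.9, 45.4 and 42.2 in the ENR libraries and 11, 6.42, 9.28 and 8.78 in the EN libraries. Here ENR stood above CV and CV above EN, without overlap. Nup37 differed by -1.04 ± 0.12 (SE) from CV to EN and by -1.20 ± 0.10 (SE) from ENR to CV, with edgeR adjusted p = 9.46e-07 and 5.37e-08. With the deposited copies its change from CV to EN was -0.35 and was not called. Between them were Nup133 (-2.83), Nup43 (-2.56), Nup107 (-1.94) and Nup160 (-1.39). In TPM the 6 transcripts together came to 31.4 ± 2.72 (SD, n = 4) for EN, against 177 ± 6.29 for CV and 208 ± 5.30 for ENR.

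The inner ring spans the membrane pore and holds the channel proteins in place. Nup155, a large scaffold subunit, had 64.6, 69.5, 70.4 and 68.7 CPM in the CV libraries, 73.1, 84.1, 84.4 and 74.4 in the ENR libraries and 17.4, 13.1, 14.8 and 17.4 in the EN libraries. Its EN libraries were below every CV and ENR library, and it changed by -2.10 ± 0.08 (SE) from CV to EN, adjusted p = 2.62e-12 in edgeR. Nup35, which links the ring to the membrane, had 38.5, 38.2, 34.1 and 35.2 CPM in the CV libraries, 33.2, 37.3, 31.1 and 30.5 in the ENR libraries and 22.5, 27, 24.1 and 17.6 in the EN libraries. EN was again the lowest without overlap, by -0.69 ± 0.11 (SE) (edgeR adjusted p = 2.24e-05), although with the deposited mRNA copies the change was 0.05. Nup93, Nup205 and Nup188 fell by log2 values of 2.02, 2.00 and 1.31, although Nup188 was at -0.56 and not called with the copies. Nup93 was also higher in CV than ENR (0.49), while Nup205 and Nup188 were lower (-0.19 and -0.24), all called in edgeR. None of the 3 calls held with spike-ins or copies, and those of Nup205 and Nup188 were also lost in TPM. That of Nup188 was lost too without any 1 of the CV libraries, ENR library 2, 3 or 4, or EN library 1, with edgeR adjusted p up to 0.0343.

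Nup210, a transmembrane protein that anchors the pore, gave 80.1, 84.5, 86.8 and 96.7 CPM in the CV libraries, 78.4, 79.2, 84 and 90.7 in the ENR libraries and 10.6, 11.3, 9.81 and 10.7 in the EN libraries. The fitted level was 8.22-fold higher in CV than in EN, and the EN libraries overlapped neither other culture. The log2 fold change from CV was -3.04 ± 0.08 (SE) and from ENR -2.97 ± 0.08 (SE), with edgeR adjusted p = 2.98e-14 and 5.24e-14.

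The central channel holds the repeat proteins that carriers bind. Nup62, its core subunit, had 35.8, 37.8, 39.5 and 47.4 CPM in the CV libraries, 48.1, 50.2, 52.1 and 57.5 in the ENR libraries and 18.6, 16.3, 18 and 18.9 in the EN libraries. All EN libraries were lowest, with a change from CV of -1.15 ± 0.10 (SE) and an edgeR adjusted p = 1.88e-08. It was -0.42 and not called with the deposited copies. Nup54, its partner, fell by 0.67 (log2, CV to EN), but the change was 0.08 with the deposited copies. Nup98, a mobile repeat protein, had 55.5, 55.7, 56.9 and 58.4 CPM in the CV libraries, 57.6, 55.1, 55.4 and 52.5 in the ENR libraries and 52.3, 49.9, 61.2 and 56 in the EN libraries. The cultures overlapped, and its difference from CV to EN was -0.05 ± 0.06 (SE) with an edgeR adjusted p = 0.494. It was called higher with the copies (0.67) and lower in TPM (-0.34, limma on log2(TPM + 1)).

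On the cytoplasmic side, Nup88 and Nup214 form a subcomplex that binds the exporter Xpo1. Nup88 had 62.4, 63, 68.1 and 65.9 CPM in the CV libraries, 66.4, 75.6, 66.5 and 70.3 in the ENR libraries and 37.9, 35.1, 32.5 and 42 in the EN libraries. EN was below both other cultures, by -0.81 ± 0.07 (SE) from CV (edgeR adjusted p = 5.18e-08), or -0.07 and not called with the copies. Nup214 had 18.6, 17, 17.1 and 20.5 CPM in the CV libraries, 21.1, 21.1, 19.4 and 21.8 in the ENR libraries and 15.7, 16.9, 13.9 and 14.5 in the EN libraries. Its EN range lay just under its CV range, with a difference of -0.27 ± 0.09 (SE) that missed the threshold (edgeR adjusted p = 0.0158) and passed it without EN library 2 (edgeR adjusted p = 0.00899). It was -0.69 and called with spike-ins, -0.43 and called in TPM, and 0.32 and not called with the copies.

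The nuclear basket faces the nucleoplasm. Nup153, which tethers the basket, had 81.9, 82.5, 85.2 and 84.7 CPM in the CV libraries, 113, 105, 106 and 106 in the ENR libraries and 64.3, 64, 68.3 and 63.2 in the EN libraries. EN was lowest and ENR highest without overlap, and the change from CV was -0.36 ± 0.04 (SE) (edgeR adjusted p = 1.26e-06), or 0.39 with the deposited copies. Nup50, a cofactor of import that moves on and off the basket, had 77.2, 72.9, 78.2 and 71.6 CPM in the CV libraries, 73.7, 74.1, 79 and 79.7 in the ENR libraries and 67.3, 65.5, 64 and 70.5 in the EN libraries. Its EN libraries lay below the CV libraries by a small margin, -0.16 ± 0.05 (SE) with an edgeR adjusted p = 0.00753. That call was lost without CV library 1 or 3 or EN library 1, 2 or 3, where adjusted p rose to at most 0.0263, and the value was 0.60 with the deposited copies.

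Importin alpha adaptors fell in 3 of 5 transcripts from CV to EN, where 41.2% of all transcripts fell, so this small set was near the general share. Kpna3 had 76.8, 73.1, 78.1 and 64.5 CPM in the CV libraries, 53.4, 56.4, 51.6 and 53.4 in the ENR libraries and 35.1, 34.5, 37.8 and 34 in the EN libraries. CV was highest and EN lowest, with a change of -1.05 ± 0.07 (SE) from CV to EN (edgeR adjusted p = 6.44e-10). Kpna2, by TPM the most abundant of the adaptors, fell by 0.88 on the log2 scale and Kpna6 by 0.35. With the deposited copies none of these 3 falls was called, at -0.31 for Kpna3, -0.10 for Kpna2 and 0.40 for Kpna6. Kpna4 had 36.3, 38, 39 and 36.9 CPM in the CV libraries, 36.2, 37.8, 40.7 and 39.8 in the ENR libraries and 41.7, 37.7, 36.9 and 38.9 in the EN libraries. The cultures overlapped, at 0.05 ± 0.06 (SE) from CV to EN (edgeR adjusted p = 0.43). The value was -0.25, called, in TPM and 0.79, called, with the copies. Kpna1 stood at 0.02 from CV to EN, was called lower in TPM and was at 0.79, called higher, with the copies. Against ENR, Kpna1 was 0.47 higher in EN (edgeR adjusted p = 9.24e-06), a difference of -0.04 when counts were scaled to spike-ins.

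**Figure D2:**
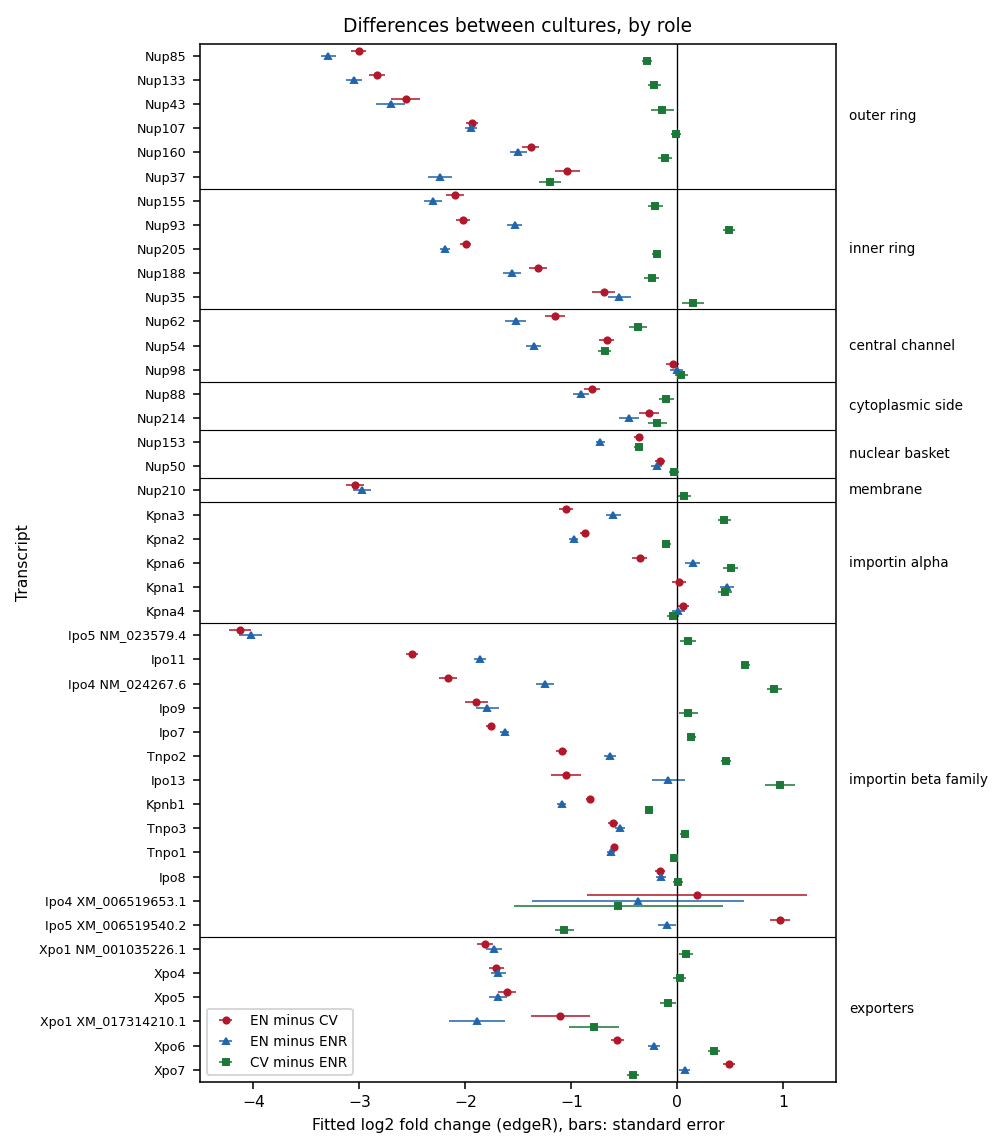
Fitted log2 fold changes of the 43 transcripts (rows, by role) on the horizontal axis, with standard errors, for EN minus CV (circles), EN minus ENR (triangles) and CV minus ENR (squares). Nup85, Nup210 and 1 Ipo5 transcript lie at or below -3 in EN minus CV, and most squares lie near 0.

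Importins of the beta family fell in 11 of 13 transcripts from CV to EN, where 41.2% of all transcripts fell. Ipo5 and Ipo4 are listed as 2 transcripts each, and reads that match both are divided by estimate, so the split is uncertain. Ipo5 carries ribosomal proteins and histones. Its transcript NM_023579.4 had 286, 281, 289 and 269.5 CPM in the CV libraries, 258, 242, 271 and 276 in the ENR libraries and 19.2, 13.5, 10.7 and 19.1 in the EN libraries. Every EN library was far below the others, with a change of -4.13 ± 0.10 (SE) (edgeR adjusted p = 1.04e-14). Its other transcript XM_006519540.2 had 33.7, 31.6, 37.6 and 34 CPM in the CV libraries, 79.6, 76.4, 67.6 and 63.3 in the ENR libraries and 70, 64, 75.8 and 58.3 in the EN libraries, so that EN lay above CV and overlapped ENR. This transcript was higher in EN than CV by 0.97 ± 0.09 (SE) (edgeR adjusted p = 1.08e-07). Summed over both, Ipo5 had 319, 312, 326 and 303 CPM in CV and 89, 77.5, 86.4 and 77.5 CPM in EN, a change of -1.93 ± 0.05 (SE) with an edgeR adjusted p = 5.68e-26. The gene as a whole was thus lower in EN, and the rise was that of XM_006519540.2.

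Ipo4, an importer of histones and ribosomal proteins, was nearly all in transcript NM_024267.6, with 58.2, 61.8, 58.1 and 61.3 CPM in the CV libraries, 32.4, 32.6, 30.1 and 32.1 in the ENR libraries and 12.7, 11.1, 13 and 16 in the EN libraries. CV was highest and EN lowest without overlap. The change was -2.16 ± 0.08 (SE) from CV to EN and 0.91 ± 0.07 (SE) from ENR to CV, with edgeR adjusted p = 1.17e-12 and 2.44e-08. The transcript XM_006519653.1 was at or near 0, with 0, 1.33, 0 and 1.33 CPM in the CV libraries, 1.15, 0, 1.52 and 1.26 in the ENR libraries and 1.47, 0, 0 and 1.3 in the EN libraries, and its fitted change has an SE of 1.04. Ipo11, Ipo9 and Ipo7, all cargo-binding importins, fell by 2.50, 1.90 and 1.76 on the log2 scale. Tnpo2, Ipo13, Kpnb1, Tnpo3 and Tnpo1 fell by 1.09, 1.05, 0.83, 0.61 and 0.59, but none of the 5 was called with the deposited copies, where they changed by -0.36, -0.29, -0.06, 0.15 and 0.18. Tnpo1 and Tnpo3 import RNA-binding proteins, Tnpo3 those of the SR splicing family. Ipo8 fell by 0.16, which was not called without CV library 2 or 3 or EN library 1 or 2 and was 0.63 with the deposited copies. Ipo13, which imports and exports, was 0.96 higher in CV than ENR and -0.09 apart between EN and ENR (edgeR adjusted p = 0.619).

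**Figure D3:**
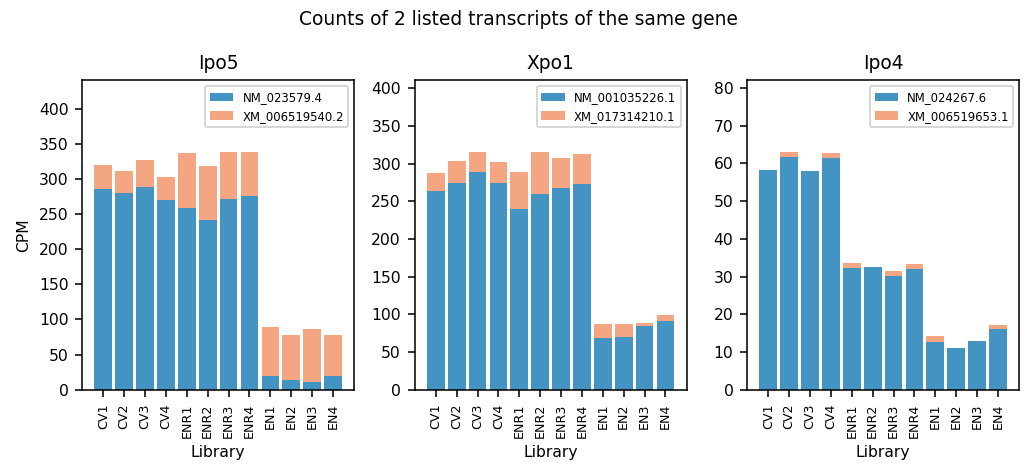
Stacked bars of CPM (vertical axis) in the 12 libraries (horizontal axis) for the 2 listed transcripts of Ipo5, Xpo1 and Ipo4. The summed bars are lowest in EN for all 3 genes, and in EN the Ipo5 bars are mostly XM_006519540.2.

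Exporters fell in 5 of 6 transcripts from CV to EN, where 41.2% of all transcripts fell. Xpo1, the main exporter of proteins with a leucine-rich signal, had in transcript NM_001035226.1 264, 274, 289 and 275 CPM in the CV libraries, 240.0, 260.2, 267 and 272 in the ENR libraries and 68.2, 69.6, 84 and 90.8 in the EN libraries. EN was lowest in every library, by -1.81 ± 0.08 (SE) from CV (edgeR adjusted p = 4.09e-12). Its other transcript XM_017314210.1 had 23.9, 30, 25.7 and 27 CPM in the CV libraries, 48.8, 55.6, 39.6 and 40.1 in the ENR libraries and 19, 17.8, 4.64 and 8.06 in the EN libraries, with a wide spread in EN and a change of -1.10 ± 0.28 (SE) (edgeR adjusted p = 0.00178), or -0.45 and not called with the copies. Summed, Xpo1 changed by -1.73 ± 0.05 (SE), with 288, 303, 315 and 301 CPM in CV and 87.1, 87.6, 88.6 and 98.9 CPM in EN. Xpo4 and Xpo5, the latter the exporter of microRNA precursors, fell by 1.71 and 1.61 on the log2 scale. Xpo6, the exporter of actin with profilin, fell by 0.57, or changed by 0.17 with the deposited copies.

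Xpo7 was the gene that rose, with 68.6, 64.1, 66.9 and 58.9 CPM in the CV libraries, 90.9, 83.1, 86.2 and 84.6 in the ENR libraries and 94.5, 92.9, 89.9 and 84.9 in the EN libraries. EN lay above CV without overlap and overlapped ENR. The change from CV was 0.49 ± 0.06 (SE) (edgeR adjusted p = 7.44e-07) and from ENR 0.07 ± 0.05 (SE) (edgeR adjusted p = 0.253). With counts scaled to spike-ins the rise from CV was 0.08 and in TPM 0.15, neither of them called. With the deposited copies it was 1.11, called.

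Against ENR, 35 of the 43 transcripts were lower in EN and 1, Kpna1, was higher, with a median of -1.25. Of all transcripts tested, 37.2% were lower and 35.5% higher in this comparison by edgeR. With the deposited copies 14 members were lower and 11 higher, with a median of -0.24. Of all 9288 transcripts, 789 were lower and 5497 higher in EN with those copies. Between CV and ENR, 10 were higher in CV and 12 lower, with a median of -0.03, where 30.2% and 29.8% of all transcripts were higher and lower. The members' split between CV and ENR was 13 higher and 5 lower with limma on log2(TPM + 1). It was 2 and 4 with spike-ins and 3 and 1 with copies. Of all 9288 transcripts, 3713 were higher and 1895 lower in TPM. These counts were 1039 and 1597 with spike-ins and 1409 and 461 with copies. The 2 comparisons with EN share the EN libraries, so their values are set side by side only.

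The size of a fall depended on the scaling, and with the deposited copies some falls became positive values. Scaled to spike-ins, 37 of the 43 transcripts were lower in EN than CV and 1 was higher, where the median of all transcripts was -0.49. The deposited mRNA copies are not proportional to TPM within a library. With these copies 17 were lower and 5 higher, where that median was 0.62. The members' median minus that of all transcripts was -0.97 with TMM, -0.99 with spike-ins and -0.97 with copies. The other log2 changes given here are on the TMM scale unless another is named.

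**Figure D4:**
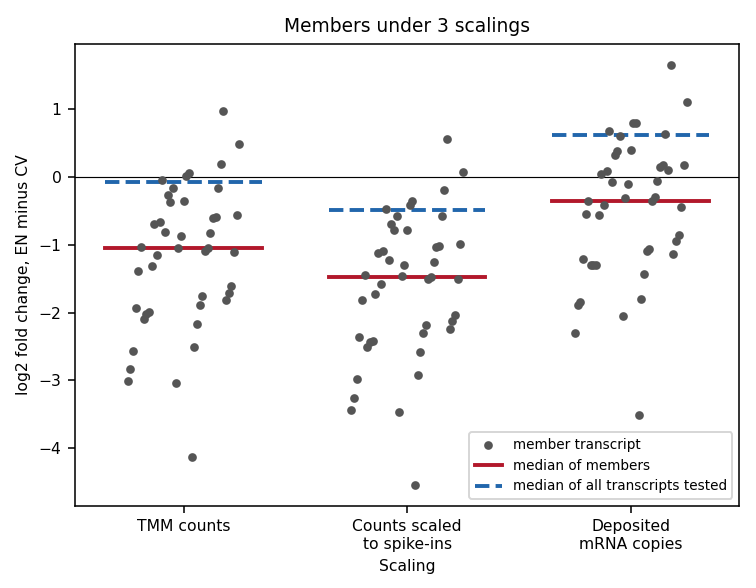
Each dot is 1 of the 43 transcripts, with its log2 change between CV and EN on the vertical axis, under each of 3 scalings. Solid lines are the medians of the members (-1.05, -1.48 and -0.35) and dashed lines those of all transcripts tested (-0.08, -0.49 and 0.62).

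Other genes of the pathway moved the same way in most cases. A further 28 transcripts of 26 genes included the Ran cycle, the mRNA exporters and other pore subunits. Of them, 22 fell from CV to EN and 2 rose, with a median of -0.94, where 41.2% of all transcripts fell. All 15 transcripts of 13 proliferation markers fell, with a median of -4.66, and their summed TPM ran from 181 to 197 across EN libraries, against 1133 to 1163 for CV and 1423 to 1480 for ENR. Their part in the result for the pore genes was not tested. Stem cell markers fell from CV to EN in 5 of 5 transcripts. Their summed TPM ran from 236 to 274 in CV, 912 to 996 in ENR and 16.6 to 18.4 in EN. By edgeR 4 of the 5 were lower in CV, the culture labelled as enriched for stem cells, than in ENR. From CV to EN, enterocyte markers rose in 6 of 6 and goblet markers in 4 of 4. Enteroendocrine markers rose in 3 of 3 and tuft markers in 2 of 2. The medians of these 4 sets were 2.87, 5.67, 6.34 and 5.52. Paneth markers rose in 2 of 4 and fell in 2, while epithelial markers summed to 7539 to 7746 TPM in CV and 5781 to 6709 TPM in EN. Fibroblast markers summed to at most 0.374 TPM and immune markers to at most 5.32 TPM. Only 2 of 5 fibroblast, 3 of 4 immune and 0 of 3 endothelial markers were listed, so these sums leave markers out. The 2 immune markers tested were both higher in EN than CV, with a median of 3.76.

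Promoter differences between EN and CV went both ways. A region of the union of peaks lay within 500 bp of a start site for 39 of the 40 genes, in 43 regions, with none for Nup160. Their median H3K4me3 score was 84.3, against 41.4 for all regions within 500 bp of a start. Accessibility (ATAC) differed between EN and CV at 12 of the 43 regions, 6 higher and 6 lower, in limma at an adjusted p under 0.05, where 34.6% of regions near a start were called (19.1% higher and 15.5% lower). The median log2 difference was -0.01. Ipo5, Ipo8, Kpna1, Kpna3, Tnpo3 and Xpo1 were the higher ones and Ipo9, Kpna2, Nup43, Nup85, Nup98 and Xpo7 the lower ones. After quantile normalization Ipo5, Kpna1, Tnpo3 and Xpo1 were not called. Over 19 alternative fits the call was lost in 13 for Ipo9, 9 for Tnpo3, 8 for Kpna2 and 4 for Kpna1. Without 1 library the limma adjusted p reached 0.116 for Tnpo3, 0.0920 for Kpna2 and 0.0505 for Kpna1.

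At chr11:115425242-115426590 the Nup85 promoter had ATAC scores of 21, 18, 22 and 22 in the CV libraries, 23, 20, 22 and 26 in the ENR libraries and 3, 14, 8 and 14 in the EN libraries. EN was below both cultures, by -1.19 ± 0.31 (SE) from CV (limma adjusted p = 0.00577), the same direction as its RNA. The Nup43 promoter was also less open in EN, with a log2 difference of -0.47 (limma adjusted p = 0.0151). That of Ipo9 was at -0.42 with limma adjusted p = 0.0485, a call lost without CV library 2, 3 or 4, any 1 ENR library or EN library 1, 2 or 3, where adjusted p reached 0.129. The Xpo1 promoter, at chr11:23155217-23157635, whose upstream sequence is given above, had ATAC scores of 339, 326, 292 and 314 in the CV libraries, 403, 370.0, 350.0 and 357 in the ENR libraries and 489, 406, 431 and 438 in the EN libraries. EN exceeded CV in every library, by 0.47 ± 0.08 (SE) (limma adjusted p = 1.06e-04), opposite to its RNA, but the difference was 0.08 and not called after quantile normalization. The promoter of Kpna3, at chr14:62057684-62059198, had the largest gain among the called regions, with scores of 240.0, 200.0, 238 and 192 in the CV libraries, 331, 306, 268 and 300.0 in the ENR libraries and 360.0, 386, 355 and 369 in the EN libraries. That difference was 0.76 ± 0.09 (SE) (limma adjusted p = 3.31e-06), while its RNA fell. At chr14:71165229-71166949 the Xpo7 promoter was less open in EN by -0.57 ± 0.10 (SE) (limma adjusted p = 2.54e-04), while its RNA rose. The region of Nup98 also holds a start of Pgap2.

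H3K27ac, a mark of active promoters and enhancers, was called at 5 of the 43 regions, 4 higher and 1 lower in EN, where 20.6% of regions near a start were called (16.9% higher and 3.73% lower). The Kpnb1 promoter had scores of 67, 95 and 108 in the CV libraries, 131, 173 and 138 in the ENR libraries and 161, 178 and 192 in the EN libraries, EN above CV without overlap, by 0.99 ± 0.22 (SE) (limma adjusted p = 0.00405). The Ipo5 promoter had 139, 153 and 119 in the CV libraries, 127, 130.0 and 114 in the ENR libraries and 66, 101 and 70 in the EN libraries and was lower in EN by -0.80 ± 0.24 (SE) (limma adjusted p = 0.0341), a call lost without CV library 3 or 4, ENR library 4 or EN library 2 or 4. The same region was more open in EN by ATAC, by 0.53 ± 0.11 (SE) (limma adjusted p = 7.88e-04), or 0.17 and not called after quantile normalization. Kpna1, Nup98 and Xpo1 were also higher. Xpo1 had at most 294 in CV and at least 296 in EN, and its difference was -0.02 after quantile normalization. Kpnb1, Kpna1 and Nup98 were then at 0.41, 0.54 and 0.64, and none of them was called. These calls rest on few libraries: without EN library 4 none of the 43 was called, and without EN library 2 only 2 were.

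H3K4me3, a mark of active starts, was called at 2 regions, Xpo1 and Xpo7, both higher in EN, where 10.0% of regions near a start were called. Xpo1 had 141, 142 and 122 in the CV libraries, 173, 157 and 150.0 in the ENR libraries and 239, 223 and 188 in the EN libraries, and differed by 0.67 ± 0.11 (SE) (limma adjusted p = 0.0125). After quantile normalization Xpo1 was at 0.02 and Xpo7 at 0.26, neither of them called. The count was 0 without EN library 2 and 1 without CV library 2, 3 or 4, ENR library 1 or 2, or EN library 1 or 4. H3K27me3, the Polycomb mark, was called by limma at 0 regions and had an unadjusted p under 0.05 at 1, where 0.345% of regions near a start were called. Its median score at the members was 6.44, against 7.22 at all regions near a start.

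**Figure D5:**
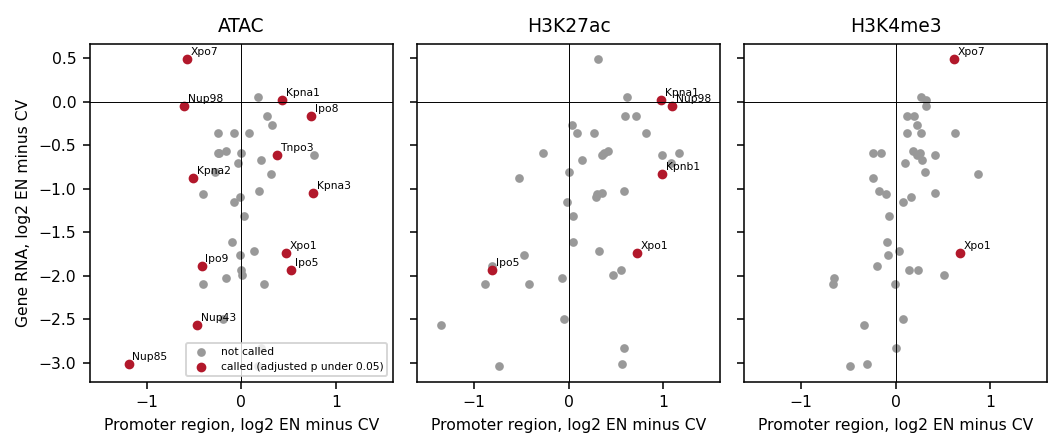
Each dot is a promoter region of a member: the horizontal axis is its log2 difference from CV to EN for ATAC, H3K27ac or H3K4me3, and the vertical axis is the log2 RNA change of that gene, transcripts summed. Dots called in limma are named, and the Xpo1 dots lie right of 0 and below 0 on the vertical axis in all 3 panels.

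Hnf4g, an enterocyte transcription factor, was measured in 1 library per culture, so no test was made. RPKM here scaled reads to region length and to each library's reads in the union of peaks, not to all its reads. Those totals were 84340 reads in the CV library, 352600 in the ENR library and 1816497 in the EN library. Over the 43 regions RPKM was 13.7 in CV (95% Poisson interval 10.9 to 17.1) and 12.9 in ENR (11.5 to 14.4). In EN it was 25.8 (24.9 to 26.7). All regions near a start had 20.6, 21.9 and 31.9, so the members were below them in every library. The CV library held 79 reads over the 43 regions and the EN library 3190, and the intervals cover counting error only.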

How the data were processed

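Organoids of the CV, ENR and EN cultures were compared by RNA-seq, ATAC-seq and ChIPmentation, grouped by the sample labels. The authors deposited expected counts per transcript from kallisto (0.43.0 in the submitters' processing notes), TPM values, and mRNA copy numbers scaled to spike-ins, for transcripts whose protein was also measured. For chromatin, scores per region of mm9 were deposited by the authors after normalization and rounding, and raw counts for Hnf4g. For H3K27me3 the paper's methods extend the peaks to 1000 bp, and the column headers name that length. Region coordinates are printed as deposited, and whether their starts count from 0 or 1 is not given in the sources used here. BWA, Picard and MACS2 2.0 are named in the notes.

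Counts were rounded, filtered (above 0 in at least 4 libraries) and tested in edgeR 4.0.16 (TMM, quasi-likelihood, Benjamini-Hochberg, adjusted p under 0.01) in 1 fit of 12 libraries, in R 4.3.3. Scores above 0 in at least 3 libraries were tested with limma 3.58.1 on log2(score + 1), adjusted p under 0.05. CPM is the count scaled to the TMM library size. DESeq2 1.42.0 was an alternative. Both tests were tested on simulated data. Members, roles and lists were chosen with earlier results of these data known. Library values are given for the lowest and highest change of each role, transcripts that rose, and genes listed as 2 transcripts. Starts came from GENCODE M1, and promoter sequences from RefSeq (GRCm38.p6). The 3 counts that set the floor correspond to 0.339 to 0.533 CPM. Histone libraries outside the table, and the Hnf4g knockout pair, were not analysed here.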

Additional observations from a re-analysis of the deposited data

Results flagged for a closer look

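In 129 groups of 4 libraries (43 transcripts in 3 cultures), 3 held a library far from the other 3 by Dixon's ratio, where chance gives about 5% of groups. Nup133 was low in CV library 1, at 61.3 CPM against 70.3 to 71.2 in the other CV libraries. It was also low in ENR library 1, at 74.6 CPM against 80.7 to 81.7. Nup153 was high in ENR library 1, at 113 CPM against 105 to 106. For both genes, every EN library was below every CV and ENR library.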

How the results depend on the processing

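Deposited mRNA copies changed most: 22 members were called from CV to EN (5 higher, 17 lower), 11 were higher and 14 lower from ENR to EN, and 4 differed between CV and ENR (3 higher and 1 lower in CV). With copies the log2 change from CV to EN was 0.63 for Ipo8, 0.40 for Kpna6, 0.60 for Nup50, 0.046 for Nup35, 0.17 for Xpo6, 0.39 for Nup153, 0.15 for Tnpo3, 0.079 for Nup54, 0.67 for Nup98 and 0.18 for Tnpo1, that of Ipo13 from ENR to EN was 0.70, and those of Nup205 and Nup188 from ENR to CV were 0.0017 and 0.052. Scaled to spike-ins, 1 member was higher in EN than CV, 0 were higher in EN than ENR (36 were lower, edgeR), where Kpna1 changed by -0.040, and 6 differed between CV and ENR (2 higher and 4 lower in CV). With limma on log2(TPM + 1) or log2(TPM + 5), 1 member was higher in EN than CV. Of the members, 5 were lower and 13 or 14 higher in CV than ENR. With log2(TPM + 1), 40 members were lower in EN than CV. From CV to EN, Kpna4 changed by -0.25 and -0.20 and Kpna1 by -0.29 and -0.25, all called. Counts summed per gene left 1 gene higher in EN than CV, with Ipo5 at -1.93 and Ipo4 at -2.09. The cause of these shifts was not tested.

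With DESeq2, or its size factors in edgeR, Ipo8 and Nup50 were not called from CV to EN. Leaving out each library in turn left 36 to 38 members called from CV to EN, 34 to 36 from ENR to EN and 18 to 22 between CV and ENR. For promoter regions from CV to EN it left 9 to 12 called for ATAC, 0 to 5 for H3K27ac and 0 to 2 for H3K4me3. At an adjusted p under 0.01, 7 ATAC, 3 H3K27ac and 0 H3K4me3 regions were called by limma. Without a trend 0 H3K27ac and 0 H3K4me3 regions were called, with quantile normalization 0 H3K4me3 regions and a difference of -0.020 at Xpo1 for H3K27ac, and with no filter 1 H3K4me3 region. Unadjusted p was under 0.05 at 15 H3K27ac and 10 H3K4me3 member regions.

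Libraries of the same number were not treated as pairs: correlations of their deviations ran from -0.059 to 0.095 in RNA and from 0.070 to 0.46 in ATAC, and were not all above 0.1 in any assay. A library correlated best with one of its own number in 3 of 12 cases in RNA and 9 of 12 in ATAC. Mean correlations in ATAC were 0.17 for libraries of the same number and -0.056 for other pairs. The main ATAC fit did not model this link. Over its 19 alternative fits, a replicate block among them, 7 to 14 member regions were called between EN and CV. In fits with a replicate block, 0 H3K27ac regions and 1 H3K4me3 region were called, and of the members' RNA calls from CV to EN that of Nup50 was lost. Spread among 3 or 4 libraries limits these counts.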
